A study of Danio rerio with 8 samples.

Results

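Normal development of the distal trunk of zebrafish between 60 and 72 hours post fertilization (hpf) was described from the 2 control samples of these ages, out of 8 samples in all. For each gene the ratio of the 72 to the 60 hpf value was taken as a log2 ratio after adding 1 to both values. Of 24345 gene identifiers, the 21950 whose values averaged at least 10 across all 8 samples were measured in this way. The control animals were Tropical 5D wild-type embryos held in 1% DMSO from 6 to 8 hpf onwards. The study set them beside animals of the same strain and ages in benzo[k]fluoranthene (BkF, 12 µM), a hydrocarbon of fused aromatic rings that activates the aryl hydrocarbon receptor. All animals had their chorions removed with pronase at 4 hpf and stayed in the dark at 28.5 °C. RNA came from trunk tissue cut at the pigment gap by the caudal peduncle at 48, 60, 72 and 96 hpf, and each deposited value is the authors' mean of normalized counts over 4 biological replicates of 50 animals.

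Since each age has 1 deposited value per gene, no spread between replicates was known and no test was made. All differences are given by size alone: levels are mean normalized counts, and a number in parentheses after a gene or its levels is its log2 ratio of 72 over 60 hpf. Whether the 2 ages came from the same clutches is not given in the labels. A lower value in such bulk tissue cannot tell fewer cells of a type from less RNA per cell. Gene names follow the name table, in which many zebrafish genes carry a symbol in capitals without the letter of their copy, and identifiers are printed where genes share a symbol.

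Around these ages the zebrafish embryo hatches and becomes a free-swimming larva. Neurons of the spinal cord are still being born from progenitors held back by Notch signalling, while fast muscle fibres build their sarcomeres and Schwann cells begin to make myelin. Skin ionocytes carry ammonium, proton and sodium transport before the gills take over, and the fin fold rests on rods of actinotrichia. Zebrafish cells hold a circadian clock that light can set: CLOCK and BMAL proteins drive the genes of their own repressors, the period, cryptochrome and NR1D proteins, and of output factors such as dbp, tef and hlf. The interrenal gland, the fish counterpart of the adrenal, begins to release cortisol at about the time of hatching, and cortisol acts through the glucocorticoid receptor.

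The tissue label was checked against markers. Of the distal trunk markers, 13 were matched, to 14 identifiers, and all but noto, a gene of the early notochord, stood at 10 or more at 60 or 72 hpf. The actinotrichia gene and2 stood at 1731428, 2164660.4, 2296307 and 2090017 at 48, 60, 72 and 96 hpf and the periderm keratin krt4 at 3732110.0, 3505630.0, 2683520.0 and 2782090.0. Of the markers of liver, pancreas, heart, eye and forebrain 7 were matched, and 3 of them stayed under 10 at both ages. The sum over the 7 was 653 at 60 hpf and 515 at 72 hpf against 7182180 and 6491540 for the trunk markers. Blood and macrophages were in the tissue: the macrophage gene MPEG1 (ENSDARG00000043093) stood at 2480.2, 3561, 4583 and 4891 at the 4 ages. Its copy MPEG1 (ENSDARG00000055290) did not rise, at 516, 450, 443 and 453. Globins and lysozyme are given below. The deposited values summed to 89533865 at 60 hpf and 88010584 at 72 hpf, and between 76456319 and 89533865 over all 8 samples. At 60 hpf 343 genes were listed at 0, and at 72 hpf 331.

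Few genes differed much over these 12 hours. 423 genes, 1.93% of those measured, were at least 2-fold higher at 72 hpf and 341, 1.55%, were at least 2-fold lower. At 1.5-fold the counts were 1124 (5.12%) higher and 1147 (5.23%) lower. The 1.5-fold counts given below for lists in the controls over this interval are to be set against these shares. The median log2 ratio over all genes was −0.00, with 49.1% of genes above 0 and 50.8% below. In the interval before it, from 48 to 60 hpf, 1114 genes (5.08%) were at least 2-fold higher and 418 (1.9%) lower, and over the 24 hours from 72 to 96 hpf 310 (1.41%) were higher and 241 (1.1%) lower. These intervals share the 60 or the 72 hpf control sample with the one described, so their values are only set side by side.

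The spread of the ratios depended on the level. Of the 2544 genes with a mean of 10 to 50 at the 2 ages, 13.9% were at least 2-fold different, and 90% of their ratios lay between −1.15 and 1.18. Of the 6900 genes with a mean of 1000 to 5000, 0.638% were 2-fold different, and 90% of their ratios lay between −0.33 and 0.31. Of the 764 genes (3.48%) at least 2-fold different either way, 440 had a mean under 50 and 46 were listed at 0 at 1 of the 2 ages. The 324 others had a mean of 50 or more, and 189 of them were higher and 135 lower.

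Among genes with a mean of 50 or more and no 0, the highest ratio was that of NR1D1, a repressor of the circadian clock, which stood at 18.9, 51.7, 1327 and 1493 at 48, 60, 72 and 96 hpf, a log2 ratio of 4.66 between 60 and 72 hpf. TAT, the liver enzyme of tyrosine breakdown and a classical glucocorticoid target, followed at 121, 308, 5247 and 8076 and a ratio of 4.09. RHCG (ENSDARG00000007080), an ammonia channel of skin ionocytes, stood at 15.5, 75.6, 1211 and 3628 and had a ratio of 3.98. All of them were low at 48 and 60 hpf and stayed high at 96 hpf. The myelin basic protein gene mbpa was listed at 0 at 48 hpf and stood at 63.2, 525 and 613 afterwards, a ratio of 3.03. The other genes among the 10 highest that kept their level at 96 hpf were xkr8.2 (2.46), METTL21C (ENSDARG00000055437), a muscle methyltransferase gene, at 2.34, ucp3, a mitochondrial uncoupling protein gene (2.34), and dbpa, a clock output factor (2.35). RIMS1, a protein of the presynaptic active zone, and plb1, a phospholipase, behaved otherwise. RIMS1 stood at 196, 213, 1504 and 123 and plb1 at 19.9, 20.7, 136 and 27.0 at the 4 ages, so that both were high at 72 hpf alone.

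At the other end, some of the 10 lowest ratios belonged to genes that were high at 60 hpf alone among the controls. The toll-like receptor gene tlr19.1 stood at 7.27, 103, 0.755 and 12.4 at 48, 60, 72 and 96 hpf, a ratio of −5.89. The potassium channel gene kcnt2a (−5.76) and the diacylglycerol kinase gene DGKG (−3.63) had the same shape. A mean over 4 replicates does not show whether 1 replicate carried such a value. The next genes named were lower at 72 hpf than at 48 hpf too. The embryonic globin hbbe3 stood at 1759, 398, 35.4 and 322 and had a ratio of −3.45. The motor neuron factor mnx2a stood at 157, 159.7, 34.1 and 84.5 (−2.20), the spinal interneuron factor lhx1b at 92.6, 118, 26.8 and 66.6 (−2.10) and lysozyme, lyz, at 3780.4, 1487, 367 and 760.1 (−2.01). For oacyl the ratio was −2.01 and for PIWIL2, a gene of germline small RNAs, −1.97.

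Circadian clock genes were higher at 72 than at 60 hpf. The 36 genes measured came from 3 lists, the activators and loop factors, the repressors and the output factors. The output list held nfil3 genes beside those of dbp, tef and hlf. Of the 36 genes, 31 had a ratio above 0 and 5 below, with a median of 0.42. 13 of them were higher by 1.5-fold or more and 0 lower by as much, against 5.12% and 5.23% of all genes. The repressors led with 8 of 18. PER1 (ENSDARG00000056885), a period gene, stood at 357, 439, 1439 and 1466 at 48, 60, 72 and 96 hpf, a ratio of 1.71, and its copy PER1 (ENSDARG00000012499) at 1694, 1777, 4773 and 4681, a ratio of 1.43. PER3 stood at 523, 498, 1367 and 1133 (1.46). All 3 had close values at 48 and 60 hpf and again at 72 and 96 hpf, with a step between 60 and 72 hpf. The NR1D1 relatives nr1d2a (1.26) and NR1D2 (ENSDARG00000009594) (0.86), ciarta, a further repressor (0.91), and the cryptochrome CRY1 (ENSDARG00000045768) (0.84) were also at least 1.5-fold higher. PER2, a period gene induced by light, had a ratio of 0.36, and the other CRY1 copy 0.36.

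The output factors dbpa and dbpb were among the most changed of the clock genes. dbpb stood at 289, 369, 1660.2 and 1878 at the 4 ages, a ratio of 2.17, and hlfa had a ratio of 0.75. The remaining output factors ranged from −0.16 for nfil3-5, which acts against the dbp family, to 0.55 for tefa. The activators moved less. npas2 had a ratio of 0.80 and CLOCK (ENSDARG00000003631) of 0.59, while the BMAL1 copies ENSDARG00000006791 and ENSDARG00000035732 stood at −0.04 and 0.07. The lowest ratio of the 36 was that of cry3b, at −0.28. Of the 13 light-induced genes measured 2 were at least 1.5-fold higher and 0 lower: GADD45B (ENSDARG00000027744), a stress and repair gene (1.02), and tmtopsb, a non-visual opsin gene (0.86). The other GADD45B copy, ENSDARG00000013576, had a ratio of 0.12.

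**Figure D1:**
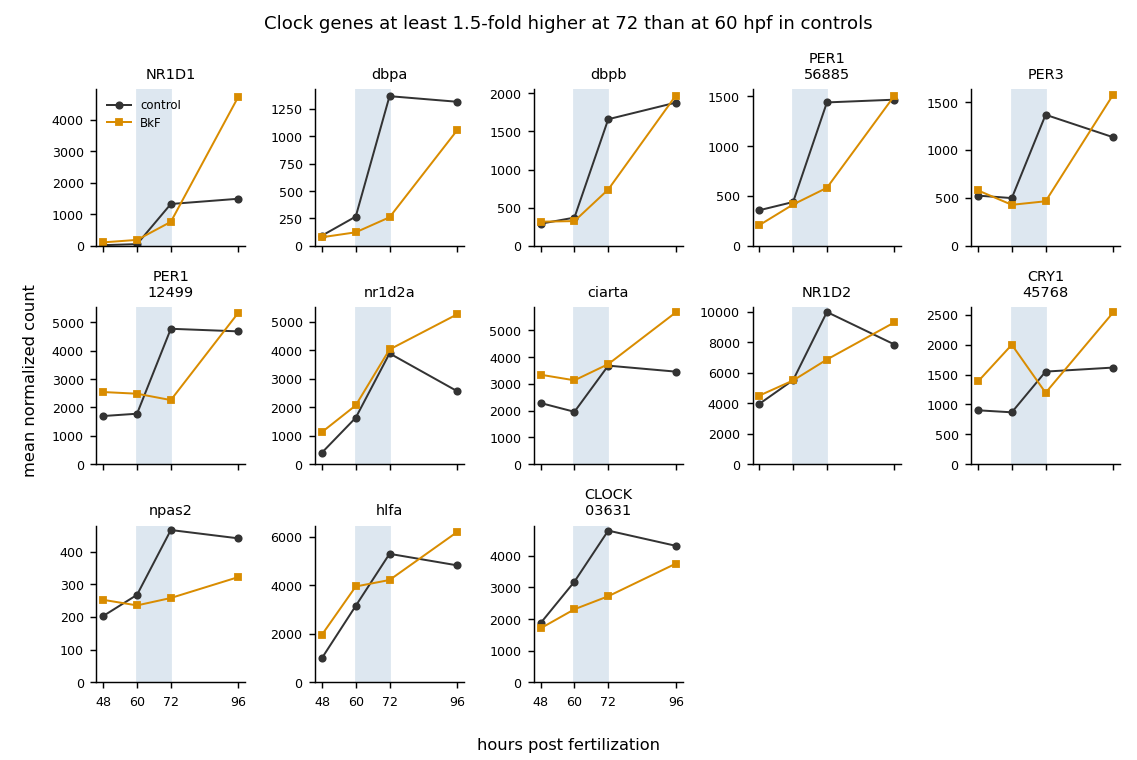
Mean normalized count (vertical axes, each from 0 on its own scale) against hours post fertilization for the 13 clock genes at least 1.5-fold higher at 72 than at 60 hpf in controls. Dark circles are control samples, orange squares BkF samples, 1 deposited value a point, with the shaded band from 60 to 72 hpf and the last digits of the identifier where genes share a symbol. In the controls most of these genes step up within the band and level off to 96 hpf. The genes were chosen by their control ratio within the band, so the control step there is given by the choice. In BkF all of them but nr1d2a are higher at 96 hpf than at 72 hpf by more than within the band. As the choice favours control over BkF in the band, this difference in timing was not tested.

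Ages of 48, 72 and 96 hpf are whole days apart. They share an hour of the day, with 60 hpf 12 hours from it, if all ages were fertilized at the same hour. Whether they were is not known here, nor whether animals kept in the dark shared a state of the clock at the same hour. Between 60 and 72 hpf alone age and time of day cannot be told apart. The hour at which tissue was taken was not used here, as the labels do not give it. The values at the other ages are given as a description. At 72 hpf, 24 hours after 48 hpf, 21 of the 36 clock genes were at least 1.5-fold higher and 0 lower than at 48 hpf, with a median ratio of 0.70, where 14.4% and 11.5% of all genes were. From 48 to 60 hpf the median was 0.31 with 8 genes at least 1.5-fold higher and 0 lower, against 10.8% and 6.23% of all genes. From 72 to 96 hpf it was −0.09 with 0 higher and 1 lower, against 3.95% and 3.47%.

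The level at 60 hpf was set against the mean of the log2 levels at 48 and 72 hpf. The median of the 36 clock genes was −0.04 in the controls, where 5 genes lay at least 1.5-fold under that mean and 1 over it, against 2.39% and 4.63% of all genes. In BkF it was 0.06, with 2 genes on either side, against 2.16% and 4.05%. By list the control medians were −0.20 for the repressors, −0.22 for the output factors and 0.10 for the activators, beside 0.00 for all genes. Taking the mean of 48, 72 and 96 hpf gave −0.11. ciarta was lower at 60 hpf (2283, 1954, 3681 and 3456 at the 4 ages) than at every other control age, as was BHLHE40, a light and hypoxia responsive repressor (4904, 3716, 4638 and 5533). At 48 hpf ciarta stood well under its 72 hpf value and BHLHE40 near it. Over all 21950 genes 3345 were lowest at 60 hpf among the 4 control ages, and of the 36 clock genes 8 were, 6 of them repressors.

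Genes of the glucocorticoid receptor pathway were higher as well. Of 31 measured 27 had a ratio above 0, 11 were higher by 1.5-fold or more and 0 lower, with a median of 0.36. Both PER1 copies belong to this list too. KLF9, a target of glucocorticoid and thyroid hormone, stood at 147, 758, 3068 and 1973 at 48, 60, 72 and 96 hpf, a ratio of 2.02. PDK2 (ENSDARG00000059054), which shifts fuel use from sugar to fat, stood at 162, 265, 1014 and 1486 (1.93) and FKBP5, a co-chaperone of the receptor, at 871, 6785, 11324 and 10412 (0.74). FKBP5 had its larger step before 60 hpf, whereas TAT and PDK2 had theirs after it. SOCS3 (ENSDARG00000025428), a feedback inhibitor of cytokine signals, had a ratio of 1.19 and CEBPD, a transcription factor, of 0.97. The other SOCS3 copy, ENSDARG00000026611, was level, at 2151 at 60 hpf and 2158 at 72 hpf. Among 21 insulin and IGF genes, 3 were at least 1.5-fold higher and 0 lower, and all 3 belong to growth hormone or IGF control: SOCS2 (1.69), PAPPA2 (1.00) and CISH (0.87).

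Immediate early genes, which cells switch on within minutes of a stimulus, had a median ratio of 0.39, or 0.96 with members matched by their own symbol alone, with 12 of 39 at least 1.5-fold higher and 0 lower. klf2a, a flow-sensitive factor, stood at 2153, 4019, 12348 and 7018 at the 4 ages, a ratio of 1.62. egr1 stood at 636, 1497, 4376 and 2117 (1.55), ier2b at 236, 319, 665 and 393 (1.06) and FOS, named after its values were seen, at 486, 1213, 3606 and 1394 (1.57). All of them peaked at 72 hpf among the controls, but they were named for high ratios or after their values were seen. The whole list had a median of −0.23 from 72 to 96 hpf.

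Metabolic genes stood out singly. UCP1, a mitochondrial uncoupling protein, stood at 106, 1994, 7928 and 10038 at 48, 60, 72 and 96 hpf, a ratio of 1.99, and ANGPTL4, an inhibitor of lipoprotein lipase, at 8443, 2418, 4882 and 6619 (1.01). Of the 50 genes of fatty acid oxidation and lipid transport 7 were at least 1.5-fold higher and 3 lower. Among all genes these shares were 5.12% and 5.23%. The lowest of the named ones was PLIN2, a coat protein of lipid droplets (−0.88). The respiratory chain was nearly level, with a median of −0.03 over 70 genes. Glycolysis and gluconeogenesis had a median of −0.04 over 43.

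Ribosomal protein genes lay on one side of 0. All 65 cytosolic ribosomal protein genes measured had a ratio above 0, the lowest 0.22, with a median of 0.32. Their summed normalized counts were 4213880 at 60 hpf and 5281500 at 72 hpf. RPL5 (ENSDARG00000015862) stood at 64414, 77337, 105439 and 102819 at the 4 ages and RPL23 at 46637, 49556, 65522 and 59948. The 43 genes of ribosome biogenesis had the same median of 0.32, all 43 above 0, with the nucleolar helicase DDX21 at 4681, 7280.4, 12162 and 10499.7 (0.74) and the RNA polymerase I subunit POLR1B at 768, 983, 1368 and 1293 (0.48). The ribosomal proteins had medians of 0.13 from 48 to 60 hpf and −0.06 from 72 to 96 hpf.

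Cell division genes were lower while replication genes were nearly level. Of 44 genes of mitosis 42 had a ratio below 0, with a median of −0.28, but only plk1, the kinase of mitotic entry, was at least 1.5-fold lower, at 12266, 8796, 5843 and 6053 at the 4 ages (−0.59). anln, the scaffold of the cleavage furrow, stood at 13569.5, 8838, 6632 and 7139.8 (−0.41). For the 43 genes of replication licensing and forks the median was −0.04 with 0 genes past 1.5-fold. Both lists had their larger drop before 60 hpf, with medians of −0.55 and −0.42 from 48 to 60 hpf, and were near 0 after 72 hpf, at 0.05 and 0.08. cdkn1a, which encodes the p21 inhibitor of the cell cycle, stood at 738, 1050.0, 1903 and 1571 (0.86) and BTG2, an antiproliferative gene, at 3665, 4254, 7081 and 4233 (0.74). They were among the highest of the genes of cell cycle exit, which lay on both sides of 0. These ranged from GADD45B (ENSDARG00000027744) at 1.02 to cdkn1ca, another inhibitor, at −0.48, with RBL1 at 0.01. The inhibitor copies CDKN1B (ENSDARG00000054271) and CDKN1B (ENSDARG00000029018) stood at −0.06 and −0.08. The 38 proteasome subunits had a median of −0.06, with 33 below 0, and the 46 genes of endoplasmic reticulum folding −0.12, with 34 below 0.

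The neural lists were among the lowest. Of 33 neural progenitor genes 30 had a ratio below 0, and 12 were at least 1.5-fold lower and 0 higher, with a median of −0.49. NEUROD4, a factor of newborn neurons, stood at 1672, 999, 289.6 and 715 at 48, 60, 72 and 96 hpf, a ratio of −1.78. The Notch ligand dlb stood at 4232, 3051, 1399.9 and 2366 (−1.12) and the proneural factor neurog1 at 576, 409.8, 189 and 296 (−1.11). All 3 were lowest at 72 hpf among the controls and higher again at 96 hpf. They were named for their large ratios over this interval, which favours genes of this shape. The 36 Notch receptors, ligands and her genes, which share members with this list, had a median of −0.44 and 12 members at least 1.5-fold lower, 0 higher. HES6 (ENSDARG00000007097), which counteracts Notch targets, stood at 685, 591, 295 and 433 at the 4 ages, and the Notch target her8a had a ratio of −0.89. The near-identical her4 copies, whose reads the counting can split unevenly, had ratios of −0.69 for her4.1 and −0.60 for her4.2.

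Of 61 genes of neurons and synapses 55 had a ratio below 0, and 25 were at least 1.5-fold lower and 0 higher, with a median of −0.48. ELAVL3, the RNA-binding marker of postmitotic neurons, stood at 3982, 3315, 1211 and 2158 at the 4 ages, a ratio of −1.45. The neurofilament INA (ENSDARG00000053248) stood at 403, 579, 216 and 352 (−1.42), the vesicular acetylcholine transporter SLC18A3 at 547, 694, 283 and 406 (−1.29) and the vesicular glutamate transporter SLC17A7 (ENSDARG00000016480) at 114, 102, 45.5 and 79.6 (−1.16). The list went the other way before, with a median of 0.34 from 48 to 60 hpf, and stood at 0.16 from 72 to 96 hpf. Transcription factors of spinal neurons named after their values were seen were lowest at 72 hpf among the controls and higher again at 96 hpf. Of these only lhx5 was higher at 60 than at 48 hpf. lhx5 stood at 104, 229.9, 71.7 and 89.3 (−1.67), nhlh2 at 776, 587, 176 and 442 (−1.73), MYT1 at 1861, 1849, 597 and 1312 (−1.63) and olig4 at 1190.0, 782, 341 and 505 (−1.19). The 17 Hox genes of groups 9 to 13, which mark position along the trunk, had a median of −0.27, with 15 below 0 and 0 past 1.5-fold, led by HOXD11 and HOXD12 at −0.45 and −0.45. Whether the cut lay at the same level at both ages was not tested.

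Myelin genes had other values. Of 25 genes 7 were at least 1.5-fold higher and 2 lower, with a median of 0.09. Beside mbpa, at low levels EGR2, the master factor of peripheral myelin, stood at 72.3 at 72 hpf and 65.2 at 96 hpf, a ratio of 2.17, and the gap junction gene GJB1 at 12.7, 6.85, 41.6 and 29.4 at the 4 ages, a ratio of 2.44. The genes that were lower were pou3f1, a factor of promyelinating Schwann cells that is also used in neurons (1537, 932, 478 and 876, ratio −0.96), and cntn2, an axonal adhesion protein (−0.69).

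Fast muscle genes were lower, and slow muscle genes had ratios near 0. Of 46 fast muscle genes 19 were at least 1.5-fold lower and 2 higher, with a median of −0.42 and 38 below 0. ACTA1 (ENSDARG00000055618), skeletal actin, stood at 5638, 7460.3, 2231 and 3365 at 48, 60, 72 and 96 hpf, a ratio of −1.74. The calcium buffer pvalb3 stood at 502, 402, 138 and 236 (−1.54), the light chain MYL1 (ENSDARG00000014196) at 5842, 5266, 2483 and 3538 (−1.08) and the calcium store protein CASQ1 (ENSDARG00000038716) at 258, 434, 207 and 225 (−1.07). These too were lowest at 72 hpf among the controls, and they too were named for their large ratios. The heavy chain myhz2 had a ratio of −0.83, and its near-identical copies make single values uncertain. The 2 genes that were higher were MYBPC2, a myosin-binding protein (0.75), and TNNI2 (ENSDARG00000013752), a fast troponin at a low level (0.65). The slow muscle list of 17 genes had a median of −0.05, with 1 at least 1.5-fold higher, the troponin TNNT1 (0.64), and 1 lower. It is not made of sarcomere genes alone, since it also holds the transcription factors SOX6 (−0.01) and PRDM1 (−0.05) and calcium store genes. No test of the difference between the fast and the slow list was made.

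Of the 51 chaperone genes 3 (5.88%) were at least 1.5-fold higher and 6 (11.8%) lower, with a median of 0.07, against 5.12% and 5.23% of all genes. hsp90aa1.1, the HSP90 copy of zebrafish muscle, stood at 7813, 5046, 2851 and 4101 (−0.82), SMYD1 (ENSDARG00000091253), which helps to fold myosin, at 471, 521, 287 and 345 (−0.86) and UNC45B, the myosin chaperone, had a ratio of −0.60. The stress-induced hsp70l had a ratio of 0.83 and the small heat shock gene hspb6 of 1.09. Among 22 muscle progenitor and differentiation genes the median was −0.18, but 0.14 with members matched by their own symbol alone, so the direction depends on the matching. There mstnb, the myostatin that limits muscle growth, stood at 36.9, 121, 349.6 and 461 (1.52), and MYF5, a factor of muscle precursors, at 159, 193, 123 and 124 (−0.65).

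**Figure D2:**
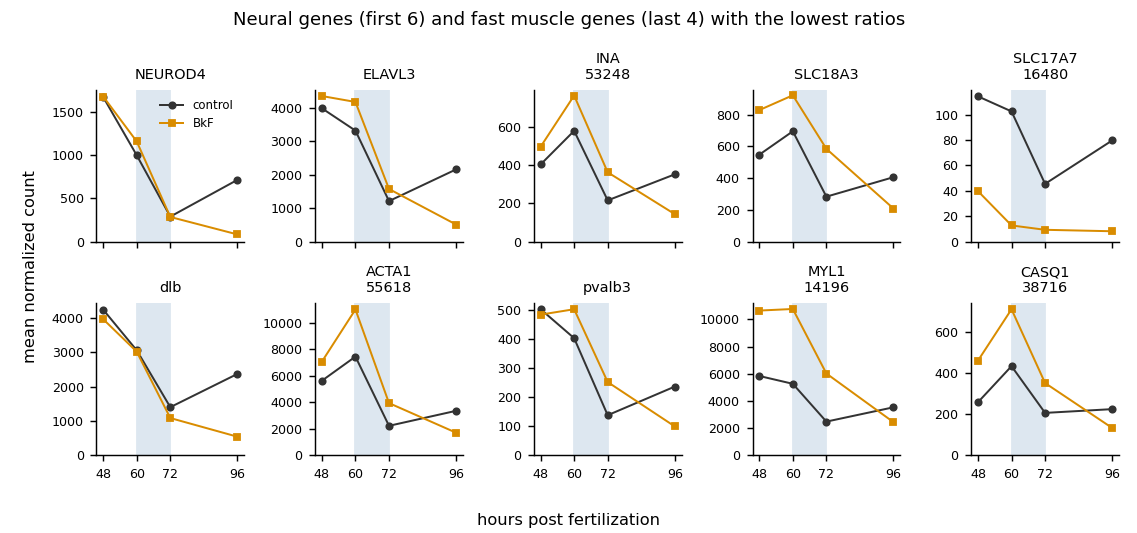
Mean normalized count (vertical axes, each from 0 on its own scale) against hours post fertilization for the 6 neural genes and the 4 fast muscle genes with the lowest ratios among those with a mean of 50 or more. Dark circles are control samples and orange squares BkF samples, 1 deposited value a point, with the shaded band from 60 to 72 hpf. Each control line is lower at 72 than at 60 hpf, which is given by the choice of genes. Each is higher again at 96 hpf, as genes picked for a low 72 hpf value tend to be. Each BkF line is lowest at 96 hpf.

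Blood genes parted by kind. Of 7 globin identifiers 5 were at least 1.5-fold lower at 72 hpf and 1 higher, with a median of −0.70. hbae3 stood at 12065, 47051, 28870.2 and 14388 at 48, 60, 72 and 96 hpf, a ratio of −0.70, and hbae1.1 at 11513, 30645, 18432 and 12336 (−0.73). Both peaked at 60 hpf, and the list had a median of −0.93 from 72 to 96 hpf. hbbe3 differed, since it was highest at 48 hpf. Globin copies are near-identical, so reads may be shared between them. Of the 32 other red cell genes 4 were at least 1.5-fold lower and 1 higher. The heme enzyme alas2 stood at 748, 2417, 1408 and 1014 (−0.78), the anion exchanger SLC4A1 (ENSDARG00000012881) at 1489.8, 3162, 1792 and 1330.3 (−0.82) and the membrane anchor ANK1 (ENSDARG00000074777) at 224, 567, 273 and 289 (−1.05), whereas FECH, which inserts iron into heme, had a ratio of 0.74.

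In the skin, keratin and adhesion genes had ratios near 0, while several ionocyte and hair cell genes were higher. The 21 keratins had a median of −0.18 with 0 at least 1.5-fold higher and 1 lower. The 47 genes of epidermal adhesion and barrier had a median of −0.08 with 2 higher and 2 lower. By as much, 5.12% of all genes were higher and 5.23% lower. Of 46 ionocyte genes 10 were at least 1.5-fold higher and 2 lower, with a median of 0.16. Several of the higher ones were at low levels, where ratios spread widely. TRPV6 stood at 7.54 and 30.6 at 60 and 72 hpf, GCM2 at 24.1 and 66.3 and KCNJ1 (ENSDARG00000090866) at 17.3 and 30.1. Beside RHCG (ENSDARG00000007080), its relative RHCG (ENSDARG00000003203) stood at 46.2, 579.8, 1292 and 2331 at the 4 ages (1.15), the sodium pump subunit atp1a1a.3 at 146, 202, 498 and 656 and foxi3a, the factor that specifies ionocytes, at 13.5, 56.5, 115 and 83.2 (1.01). Of 44 genes of the lateral line and its hair cells 9 were at least 1.5-fold higher and 3 lower, with a median of 0.08, or 0.40 with members matched by their own symbol alone. The calcium buffer pvalb8 stood at 1586, 21528, 54949 and 45381 (1.35), s100s at 608, 1612, 3001 and 3438 (0.90) and TMC2 (ENSDARG00000030311), a part of the mechanotransduction channel, at 74.2, 219, 389 and 345 (0.82). The chemokine receptor CXCR4 (ENSDARG00000041959), which guides the migrating primordium but is not limited to it, stood at 2386, 969, 504 and 878 (−0.94).

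Matrix and skeletal genes were mostly level, with single genes far out. The 42 fin fold genes had a median of −0.09 with 0 at least 1.5-fold higher and 2 lower, and and1, the partner of and2, stood at 1017055, 1068481, 1068334 and 959702 at 48, 60, 72 and 96 hpf. Of 43 collagens 0 were at least 1.5-fold higher and 2 lower, COL14A1 at 9188, 3083, 1553 and 2980.4 (−0.99) and col28a2a at 79738, 51859.8, 32793 and 45295 (−0.66). Most of the other collagens lay below 0 by less than that, such as COL1A2 (−0.34) and COL5A1 (−0.19). Fewer lay above 0, led by COL9A1 (0.58) and col17a1a (0.34). Among 51 other matrix genes 6 were higher and 3 lower, where 5.12% and 5.23% of all genes were. POSTN, periostin of connective tissue, stood at 116, 1906, 5491 and 5122 (1.53), THBS3 (ENSDARG00000012060), a thrombospondin, at 2939, 8178, 17635 and 14478 (1.11) and LOX, the enzyme that crosslinks collagen, had a ratio of 0.99. Another thrombospondin, thbs2a, stood at 921, 229, 93.2 and 205 (−1.29) and emilin3a, of the notochord and its surroundings, at 4029, 996, 434 and 1316. The metalloprotease gene mmp30 stood at 379, 846, 2859 and 3459 (1.76). Cartilage, bone and notochord lists had medians of −0.15, 0.03 and −0.19, and in bone bglap, osteocalcin, had a ratio of −0.99 and ENTPD5, needed for mineralization, of 1.05.

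The 3 pigment cell lists held genes on both sides of 0. Of 17 iridophore genes 6 (35.3%) were at least 1.5-fold lower and 1 higher, where 5.23% and 5.12% of all genes were. Their median was −0.24, or −0.62 with members matched by their own symbol alone. Lowest was pnp4a, a purine synthesis gene, at 1306, 1275, 591 and 721 (−1.11). Of 15 xanthophore genes 4 (26.7%) were lower and 2 higher, with a median of −0.31. XDH stood at 1574, 928, 488 and 774 (−0.93) and PTS, of pteridine synthesis, at 1797, 1245, 723 and 953 (−0.78). Of 23 melanophore genes 2 (8.7%) were lower, a share near that of all genes: the melanin enzymes TYRP1 (ENSDARG00000029204) at 2439.8, 1702, 953 and 986 (−0.84) and DCT at 13275, 7681, 5031 and 4938 (−0.61). All these named pigment genes were highest at 48 hpf among the controls.

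Immune genes were found on both sides. lyz was the lowest of 19 neutrophil genes, of which 3 were at least 1.5-fold lower and 2 higher, and in 34 macrophage genes the median was −0.02. Of 27 antiviral and interferon genes 9 were higher and 2 lower, with a median of 0.23, most of them at low levels. DHX58, a sensor of viral RNA, stood at 35.5, 62.2, 111 and 92.0 at the 4 ages (0.82). The complement factor cfd stood at 719, 2260.0, 6120.0 and 6548 (1.44).

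The classical signalling pathways other than Notch were nearly level. The median was 0.02 over 59 Wnt genes, 0.03 over 37 FGF genes, 0.05 over 61 BMP and TGF-beta genes, −0.05 over 21 hedgehog genes and 0.06 over 27 retinoic acid genes. With members matched by their own symbol alone the FGF, BMP and hedgehog medians were −0.07, −0.02 and −0.31. Between them they held 5 genes at least 1.5-fold higher and 7 lower, where 5.12% and 5.23% of all genes were. Among them fgf1a stood at 70.9, 84.3, 32.1 and 67.8 (−1.36), EN2, a hedgehog-responsive homeobox gene of muscle pioneers in zebrafish, at 173, 136, 66.0 and 121 (−1.03) and GDF5, a joint-forming factor, at 6.73, 33.0, 101 and 105 (1.58). Of 10 genes of the aryl hydrocarbon receptor, whose median was 0.03, 1 was at least 1.5-fold higher.

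**Figure D3:**
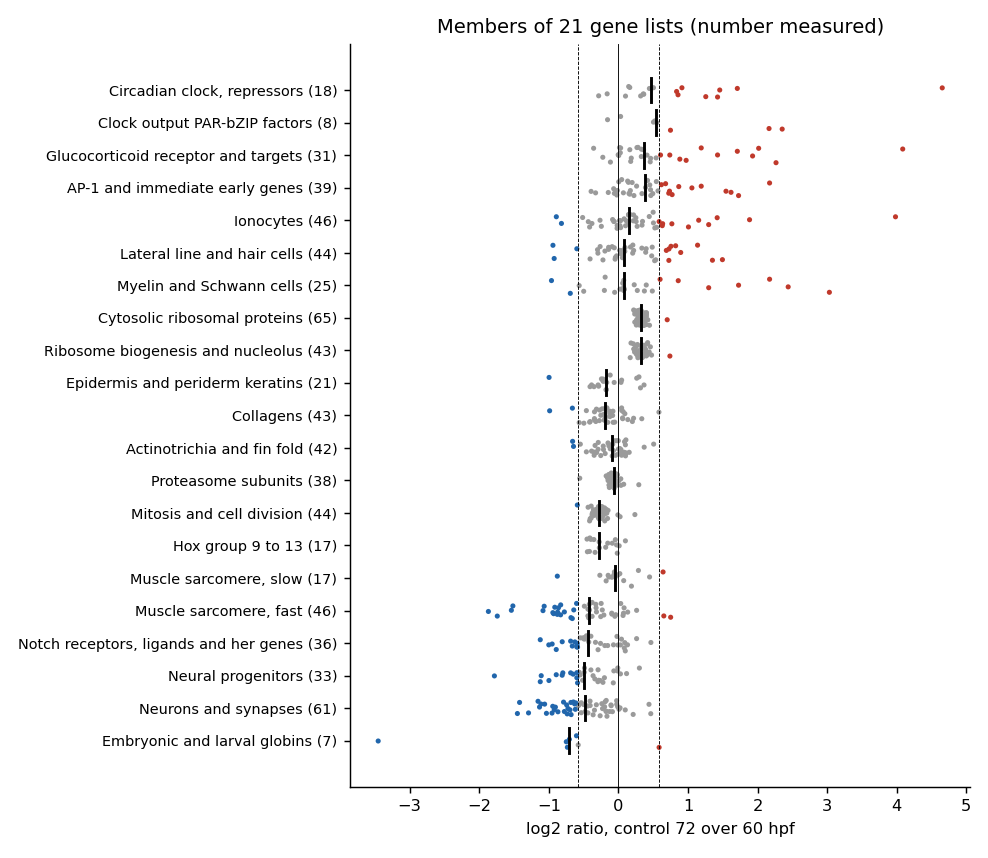
Log2 ratio of control 72 over control 60 hpf (horizontal axis) for the measured members of 21 gene lists, 1 point a gene, with the number measured in parentheses. Black bars are list medians, dashed lines mark 1.5-fold, and red and blue points lie past it. The 65 ribosomal protein genes and 43 ribosome biogenesis genes form narrow clusters right of 0, whereas the neural and fast muscle lists spread to the left.

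The 72 hpf control sample was an extreme among the 4 control ages in many lists. Of all genes measured 29.7% were lowest and 26.4% highest at 72 hpf. Lowest there were 23 of 33 neural progenitor genes, 23 of 36 Notch genes, 33 of 61 neuronal genes, 24 of 46 fast muscle genes, 32 of 44 mitosis genes, 27 of 38 proteasome subunits and 12 of 17 Hox genes. Highest there were 50 of 65 ribosomal proteins, 30 of 43 ribosome biogenesis genes, 26 of 39 immediate early genes and 21 of 36 clock genes. Highest at 60 hpf were 30 of 46 fast muscle genes, 32 of 61 neuronal genes, 18 of 31 genes of sterol and fatty acid synthesis and 5 of 7 globins, against 16.5% of all genes. Each extreme rests on 1 deposited sample.

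The BkF animals gave a separate pair of samples over the same 12 hours that shares no sample with the controls. Being treated, they are no replicate of normal development. At 72 hpf 339 genes (1.54%) were at least 2-fold higher there and 345 (1.57%) lower. Across the 21950 genes the 2 sets of ratios had a Pearson r of 0.318 and a Spearman rho of 0.376, and across the 9727 genes with a control mean of 1000 or more 0.594 and 0.485. These are descriptions across genes, which are not independent replicates and whose 4 values come from 1 normalization. 105 genes were at least 2-fold higher in both, 24.8% of the control list and 31% of the BkF list, and 84 lower in both, 24.6% and 24.3%. 28 genes were higher in control and lower in BkF, and 15 the reverse.

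By list, BkF tissue had similar values for nerve and muscle and other values for ribosomes, mitosis and the clock. Its medians were −0.56 for neural progenitors, with 16 of 33 at least 1.5-fold lower, −0.34 for neurons, −0.46 for Notch genes and −0.52 for fast muscle. NEUROD4 had a ratio of −2.02 there, ELAVL3 of −1.41 and ACTA1 (ENSDARG00000055618) of −1.48. Ribosomal proteins had a median of 0.06 in BkF against 0.32 in control, mitosis 0.02 against −0.28, and globins 0.17 against −0.70. For the 36 clock genes the BkF median was 0.08, with 6 at least 1.5-fold higher and 2 lower, against 4.63% and 5.07% of all genes there. PER3 had a BkF ratio of 0.12, PER1 (ENSDARG00000012499) of −0.14 and NR1D1 of 2.02, and at 96 hpf these stood in BkF at 1578, 5344 and 4740, above the control values of 1133, 4681 and 1493. TAT in BkF stood at 56.1, 105, 314 and 4104 at the 4 ages, so that its larger step came after 72 hpf. With 1 value per sample none of these differences between control and BkF was tested.

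**Figure D4:**
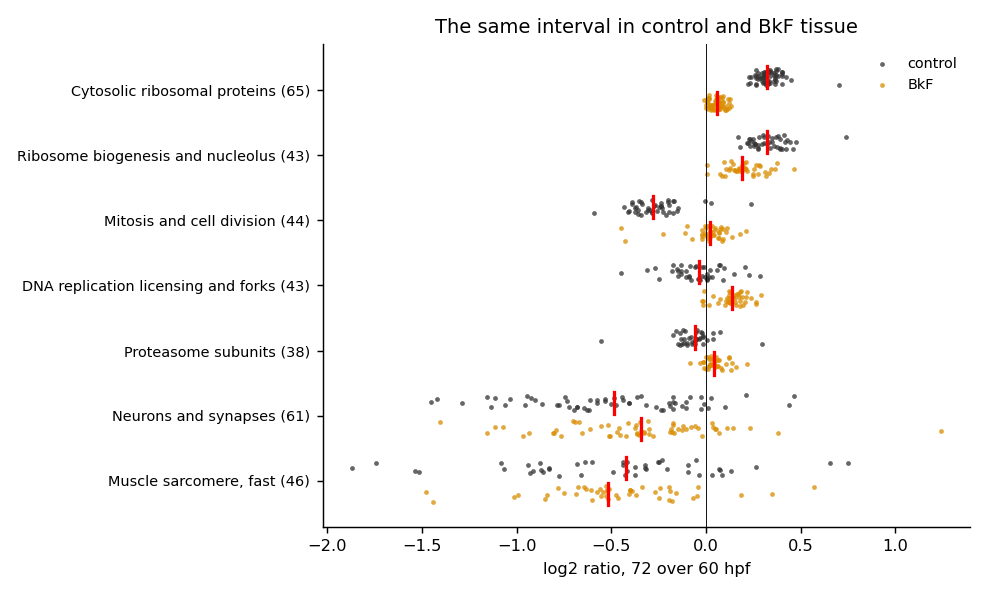
Log2 ratio of 72 over 60 hpf (horizontal axis) for the members of 7 gene lists in control (dark points) and BkF (orange points) samples, 1 point a gene, with red bars at the medians and the number measured in parentheses. The control medians of 0.32 for ribosomal proteins and −0.28 for mitosis stand apart from the BkF medians of 0.06 and 0.02, while neurons and fast muscle lie left of 0 in both.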

How the data were processed

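Per the labels' protocols, mRNA libraries were made with a stranded kit from total RNA of pooled tissue. Per the submitters' processing notes the tools were Salmon, DESeq2, Trimmomatic and FastQC and the build was Zv9. Tool versions were not given in the sources used here. Each deposited signal value is the authors' mean of DESeq2 normalized counts over 4 biological replicates. The values are not reads, so the depth of each sample is unknown and no count test was run. All 8 sample files equalled their columns of the series table.

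Ratios were computed with Python 3.11.15, numpy 2.4.6, pandas 2.3.3 and scipy 1.17.1 as log2 of values plus 1, for genes averaging at least 10 across all 8 samples, and figures were drawn with matplotlib 3.10.9. The pseudocount understates ratios of low genes. The ratios and counts were tested on simulated data. Of 65 gene lists, members were matched by own symbol (684), a synonym (32) or the capitals symbol without the copy letter (1275), and 394 were not matched. The interval, members and lists were chosen with earlier results of these data known. Genes named were the clock list members, the 10 highest and 10 lowest ratios with a symbol, a mean of 50 or more at 60 and 72 hpf and no 0, and up to 4 members of a list with the largest ratios at that mean. Other members named at lower ratios or levels, and the genes so marked, were chosen after their values were seen, as was the count of genes lowest or highest at an age. Some genes that the rule names were left out for length, and some are not reported here. Alternatives were another pseudocount, other filters, rescaling, quantile normalization and stricter matching. Of the lists not given in the report, each has a median between −0.19 and 0.18.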

Additional observations from a re-analysis of the deposited data

Results flagged for a closer look

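For plb1, a phospholipase gene among those named for the highest ratios, the log2 ratio of 72 over 60 hpf was beyond 1 in opposite directions in the 2 treatments. It was 2.66 in the controls and −1.44 in BkF. With 1 deposited value per sample the difference between the treatments was not tested. The control ratio came from a single high sample at 72 hpf.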

How the results depend on the processing

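Counts of single genes depended on how low values were treated. With a pseudocount of 10 the genes at least 2-fold higher and lower numbered 247 and 171 in place of 423 and 341. With no filter on low values they were 887 and 728, and with a mean of 50 or more 191 and 146. At 1.5-fold, in place of 1124 and 1147, they were 1826 and 1799 with no filter and 590 and 655 with a mean of 50 or more. Pearson's r with BkF was 0.447 for a mean of 50 or more, an alternative chosen after seeing the data. The filter sets how many low genes enter, and the larger pseudocount shrinks their ratios.

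At 1.5-fold the higher genes were thus fewer than the lower ones, but more with no filter. Under the pseudocount, filter and normalization alternatives list medians changed sign 8 times, from a size of 0.14 at most, and named ratios 3 times, from 0.0078 at most. Under stricter matching list medians did so 8 times, from 0.19 at most. Of 1639 values for named genes 1621 moved by less than 0.2, 15 of the others under a pseudocount of 10. Under quantile normalization krt4 had a ratio of 0, as a gene of equal rank at both ages has by construction. Of 455 list medians 446 moved by less than 0.2. The 9 others came from matching members by their own symbol alone, which left fewer members: immediate early genes had a median of 0.96, iridophores −0.62 and hair cells 0.40. Light-induced genes at −0.02, muscle progenitor genes at 0.14 and blood stem and progenitor genes at 0.35 changed sign. With samples scaled to equal totals the median over all genes turned from −0.004 to 0.02. No paired analysis was possible because each condition has 1 deposited value, so no replicate could be left out either. Depth is unknown and no interval was given.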

Other observations

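Genes of amino acid and energy handling that stand in none of the groups above, named after their values were seen, were higher at 72 hpf. SLC43A2 (ENSDARG00000036848), a neutral amino acid transporter, stood at 760.2, 1596, 4531 and 5135 at 48, 60, 72 and 96 hpf in the controls, while its copy SLC43A2 (ENSDARG00000061120) stood at 5257, 7402, 7357 and 6949. CBS, of cysteine synthesis, stood at 152, 194, 429 and 577, a log2 ratio of 1.14 between 60 and 72 hpf, and GLDC, which breaks down glycine, at 822, 1219, 2556 and 2869.7 (1.07). LPIN1, of fat synthesis and storage, stood at 278, 730.0, 1599 and 1775 (1.13). All of these but the second SLC43A2 copy were highest at 96 hpf among the controls. In muscle, the mitochondrial creatine kinase CKMT2 stood at 270.0, 1550.0, 3136 and 2856 (1.02), myoglobin, mb, at 298, 786, 1375 and 1146 (0.80) and the stretch-responsive gene ANKRD2 at 121, 202, 515 and 853 (1.35), against the lower fast sarcomere genes. In BkF ANKRD2 stood at 112, 704, 65.7 and 48.2, a ratio of −3.40.

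Vessel genes were mostly level, with a median of −0.05 over 47 genes, 3 at least 1.5-fold higher and 4 lower. By as much, 5.12% of all genes were higher and 5.23% lower. The lymphatic receptor gene lyve1a stood at 16.7, 84.5, 261 and 286 (1.62), and angpt2b, an angiopoietin, at 177, 203, 96.5 and 128 (−1.06). The pericyte gene RGS5 stood at 146, 34.5, 177 and 32.1 at the 4 control ages, high at 48 and 72 hpf and low at 60 and 96 hpf. In BkF RGS5 stood at 23.0, 25.5, 146 and 9.0 at the 4 ages, so it was high at 72 hpf alone there. The high control value at 48 hpf was thus not repeated in BkF. In the controls rgs5b did not alternate, as it was higher at each age from 48 to 72 hpf and nearly level to 96 hpf. The low density lipoprotein receptor gene ldlra had a ratio of 0.86. DDIT4, a stress gene that restrains TOR signalling and responds to glucocorticoid and hypoxia, stood at 371, 366, 880.0 and 746 (1.26).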
